A study of Mus musculus with 14 samples.

Results

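At day 0 of a differentiation series, 2 libraries labelled MACF1 knockdown were compared with 2 control libraries of MC3T3-E1, a preosteoblast line from mouse skull. Members were all genes that reached 10 counts in 2 or more of the 4 libraries, which gave 12193 of the 24346 genes in the count table. The 12153 genes below that level held under 0.1% of the counts of any of the 4 libraries. The knockdown libraries carry sh in their titles and the control libraries NC. The sources used here do not give the sequence or vector used for the knockdown, or whether the cells were a clone or a mixed population. They also do not say what event day 0 stands before, and no treatment is named for either group. The series holds 14 libraries in all, of the same line and both conditions at days 0, 3, 5 and 10.

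MACF1 is a spectraplakin, a giant protein that binds actin filaments at its amino end and microtubules at its carboxyl end and guides microtubules toward focal adhesions. In osteoblasts it has been studied for its ties to Wnt signalling, in which secreted ligands protect beta-catenin from destruction so that it can act with Lef and Tcf factors on target genes. Runx2 commits a cell to the osteoblast lineage, Sp7 acts after it, and Alpl, Ibsp and Spp1 belong to the cell that lays down and mineralises matrix. The series asks whether MACF1 furthers that course.

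The libraries labelled knockdown held 18089569 and 13846849 counts, and the control libraries 16228425 and 14166742. Across genes, log2 CPM (a gene's count scaled to a common library size that edgeR's TMM factors adjust) correlated at 0.989 within each pair and at 0.947 to 0.952 between the groups, with genes not being independent replicates. The pairs are described as biological replicates, without a word on separate cultures, so a p-value speaks of the spread among these 4 libraries only, and that spread may be technical. In bulk RNA, fewer cells of a type and less RNA per cell cannot be told apart. The osteoblast line markers Runx2, Sp7, Col1a1, Col1a2, Sparc, Cdh11 and Prrx1 were all present, at 6.48 RPKM (reads per kilobase of transcript, scaled to library depth) or more in every library. Alpl, alkaline phosphatase, stood near 0 in the libraries labelled knockdown (0.08 RPKM in both) and at 1.03 and 0.97 RPKM in control.

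Macf1 itself was not lower in the libraries labelled knockdown at day 0. The gene, ENSMUSG00000028649.15, lies at 123349633 to 123684360 of chromosome 4 (GRCm38, minus strand). The libraries labelled knockdown held 157 and 164 CPM of it and control held 158 and 163 CPM. The values of the 2 groups interleaved. The log2 fold change was 0.0012 (SE 0.10, 95% interval −0.22 to 0.22, adjusted p = 0.995). Here and below, a fold change is that of the libraries labelled knockdown over control. Unless another fit is named, each adjusted p comes from the quasi-likelihood test of edgeR. It is adjusted by Benjamini-Hochberg over all 12193 genes. The adjusted p of a difference between day 0 and day 5 covers the 12775 genes tested in 8 libraries. That of any other named fit is adjusted within that fit. The sign of the Macf1 value turned to −0.0284 without control replicate 1, to −0.0304 without knockdown replicate 2 and to −0.0255 with scaling within chromosomes, so no direction can be given. Protein was not measured here. Every direction below is therefore that of the libraries as labelled.

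Among genes that work with Macf1 at the cytoskeleton, 5 of 20 tested plakins and microtubule plus-end proteins rose, 0 fell (0 by DESeq2 and limma too, 2 at an unadjusted p under 0.05 in edgeR), and 15 did not pass, with a median log2 fold change of 0.12. Over all genes tested, 14.5% rose and 14.0% fell, with a median of −0.0048. Map1a, which encodes a microtubule-associated protein, had 128 and 139 CPM in the libraries labelled knockdown, against 65.4 and 73.9 CPM in control (log2 fold change 0.94, SE 0.11, adjusted p = 0.000522). Plec, which encodes plectin, a linker of intermediate filaments, had 986 and 1054 CPM, against 544 and 629.9 CPM in control (0.80, SE 0.12, adjusted p = 0.00194). For both genes each library labelled knockdown lay above each control library. Mapre2, which encodes a protein of growing microtubule ends, rose by 0.64 (adjusted p = 0.00648). Dst, the other mammalian spectraplakin, held 233 and 267 CPM, against 180.2 and 212 CPM in control (0.35, SE 0.12, adjusted p = 0.061). Dst passed as higher without control replicate 2 or knockdown replicate 1 (0.48 and 0.44, adjusted p = 0.0228 and 0.0319), without a filter on low counts (0.36, adjusted p = 0.0153) and with scaling within chromosomes (0.41, adjusted p = 0.0407), where 10 genes of the list rose. Without control replicate 2 or knockdown replicate 1, 1 gene of the list fell. Plec and Mapre2 did not pass when the spread was taken from all 14 libraries (adjusted p = 0.0642 and 0.282).

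Although Macf1 did not differ, a large part of the transcriptome did. Of the 12193 genes, 1762 rose (14.5%) and 1701 fell (14.0%), and 4911 had an unadjusted p under 0.05. Of those that passed, 616 rose at least 2-fold (5.05%) and 382 fell at least 2-fold (3.13%), 285 rose and 112 fell at least 4-fold, and 163 rose and 34 fell at least 8-fold. The middle 90% of all log2 fold changes ran from −0.89 to 1.15. In all 3463 genes that passed, the 2 groups did not overlap, which also held for 32.0% of all genes in the higher direction and 33.2% in the lower. With the spread taken from all 14 libraries, of which control day 3 replicate 2 stands apart, 579 rose and 352 fell; the common dispersion was 0.0474 in that fit and 0.0106 in the fit of 4 libraries. With that library left out of the larger fit, 2065 rose and 1685 fell. Of the genes named here that passed, 46 did not pass with all 14 libraries, and 1 of them, mt-Atp6, did not pass with the 13 either (adjusted p = 0.316). At the edge of the rule, 542 genes had at least 10 counts in exactly 2 libraries, 277 of them in the 2 labelled knockdown and 95 in the 2 controls, and 503 genes just outside it reached 10 counts in 1 library.

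**Figure D1:**
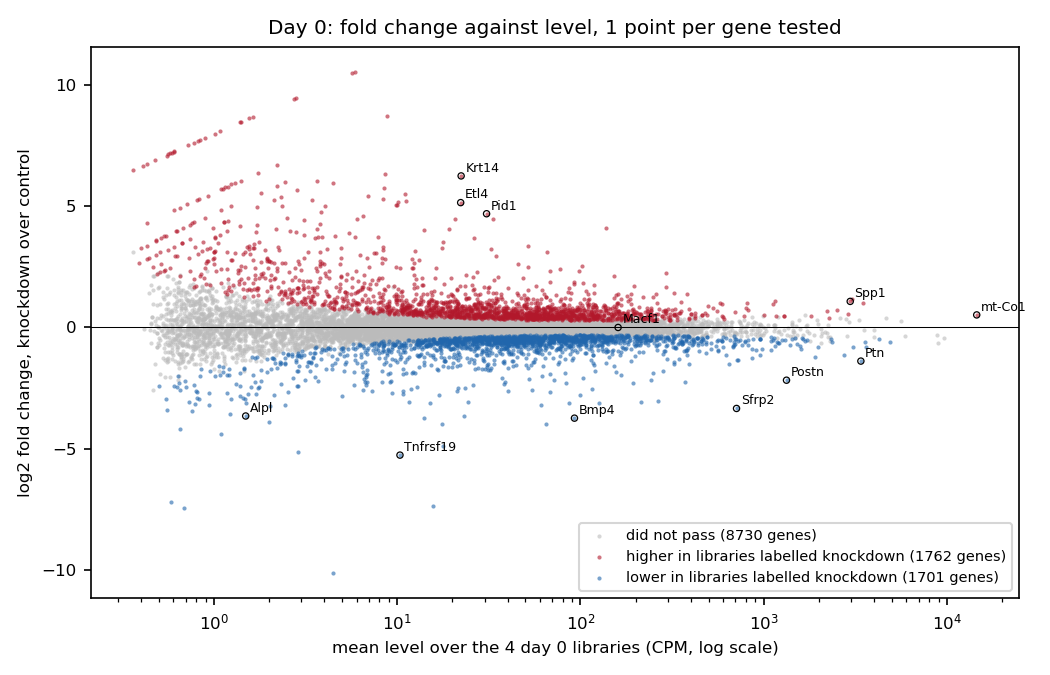
Each point is a gene, with its mean level over the 4 day 0 libraries in CPM on a log axis and its log2 fold change (libraries labelled knockdown over control) on the vertical axis; red and blue mark the 1762 genes that rose and the 1701 that fell. Macf1 lies on the zero line, Krt14 and Tnfrsf19 far from it, and the slanted rows of points at low levels are genes with 0 or few counts in 1 group.

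Some genes were read in 1 group alone. In the libraries labelled knockdown 3 genes had 0 counts in both, and in control 25 genes had 0 counts in both. Each of these met the rule of 10 counts in 2 libraries only through the pair in which it was read, so their counts are a description and their calls show nothing further. Those named next were chosen after their values were seen. Ap3b2, which encodes a neuronal adaptor subunit of vesicle coats, had 199 and 183 counts in the libraries labelled knockdown and 0 in either control library. Set against a floor of 3 counts over the control pair, that is at least 115-fold higher. Blnk, which encodes a linker of B cell receptor signalling, had 188 and 179 counts against 0 and 0 in control, at least 111-fold higher. Pgf, which encodes placental growth factor, had 54 and 38 counts against 0 and 0, at least 27.7-fold higher. In the other direction Adamts9, a secreted protease that cleaves proteoglycans, had 0 and 0 counts in the libraries labelled knockdown and 114 and 149 in control, at least 97.0-fold lower. These genes were thus at or under the floor in one group and well above it in both libraries of the other.

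The 10 largest rises were taken from genes with at least 5 CPM on average and at least 4 counts in every library. Only genes that passed and whose groups did not overlap entered, and the rises went up to 6.24 on the log2 scale. Krt14 (ENSMUSG00000045545.8, chromosome 11, 100203162 to 100207548, GRCm38), a keratin of basal epithelia, had 46.1 and 42.1 CPM in the libraries labelled knockdown, against 0.581 and 0.569 CPM in control (6.24, SE 0.20, adjusted p = 2.06e-06). Etl4, a gene needed in the notochord and intervertebral discs, had 46.2 and 40.2 CPM, against 1.35 and 1.07 CPM in control (5.14, SE 0.20, adjusted p = 2.43e-06). Pid1, which encodes an adaptor that binds lipoprotein receptors, had 60.4 and 58.0 CPM, against 2.64 and 1.92 CPM in control (4.68, SE 0.17, adjusted p = 2.32e-06). For each of these genes the lowest library labelled knockdown was far above the highest control library. The other 7 were Sybu, a kinesin adaptor (5.49), Prss35, of the serine protease family (5.43), Plxdc1, a plexin-domain membrane protein (5.30), Adam8, a membrane metalloprotease (5.22), Syt1, a calcium sensor of vesicle release (5.17), Itgb7, an integrin chain known from lymphocytes (5.04), and Marcksl1, an actin-binding protein (4.60). Their adjusted p-values reached at most 2.81e-05, that of Marcksl1, and each held 0.284 to 0.782 CPM in the control libraries.

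The 10 largest falls under the same limits on level and counts ran from −5.26 to −3.12. Il1rn, at −7.34, fell further but had 1 count in a library labelled knockdown, below the limit, and is described with the cytokines. Tnfrsf19 (ENSMUSG00000060548.10, chromosome 14, 60963875 to 61046490, GRCm38), a TNF-family receptor and known Wnt target, had 0.488 and 0.560 CPM in the libraries labelled knockdown, against 19.6 and 20.8 CPM in control (−5.26, SE 0.24, adjusted p = 4.2e-06). Cthrc1, secreted by osteoblasts and remodelling arteries, had 1.63 and 0.560 CPM, against 38.6 and 30.2 CPM in control (−4.90, SE 0.31, adjusted p = 2.09e-05). Bmp4 (ENSMUSG00000021835.12, chromosome 14, 46383520 to 46390669, GRCm38), a bone-inducing ligand, had 13.0 and 13.0 CPM, against 172 and 173 CPM in control (−3.73, SE 0.11, adjusted p = 1.36e-06). In all 3 both libraries labelled knockdown were far below both controls. Sfrp2 (chromosome 3, 83766321 to 83774316, GRCm38), a secreted Wnt antagonist, had 119 and 138 CPM, against 1293 and 1294 CPM in control (−3.33, SE 0.13, adjusted p = 2.43e-06). The other 6 were Mest, an imprinted gene (−3.99), Igfbp2, a carrier of insulin-like growth factors (−3.97), Nid1, a basement membrane linker (−3.74), Itga1, a collagen-binding integrin chain (−3.63), Tnn, the tenascin of the periosteum (−3.21), and Ltbp2, a fibrillin-binding matrix protein (−3.12).

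**Figure D2:**
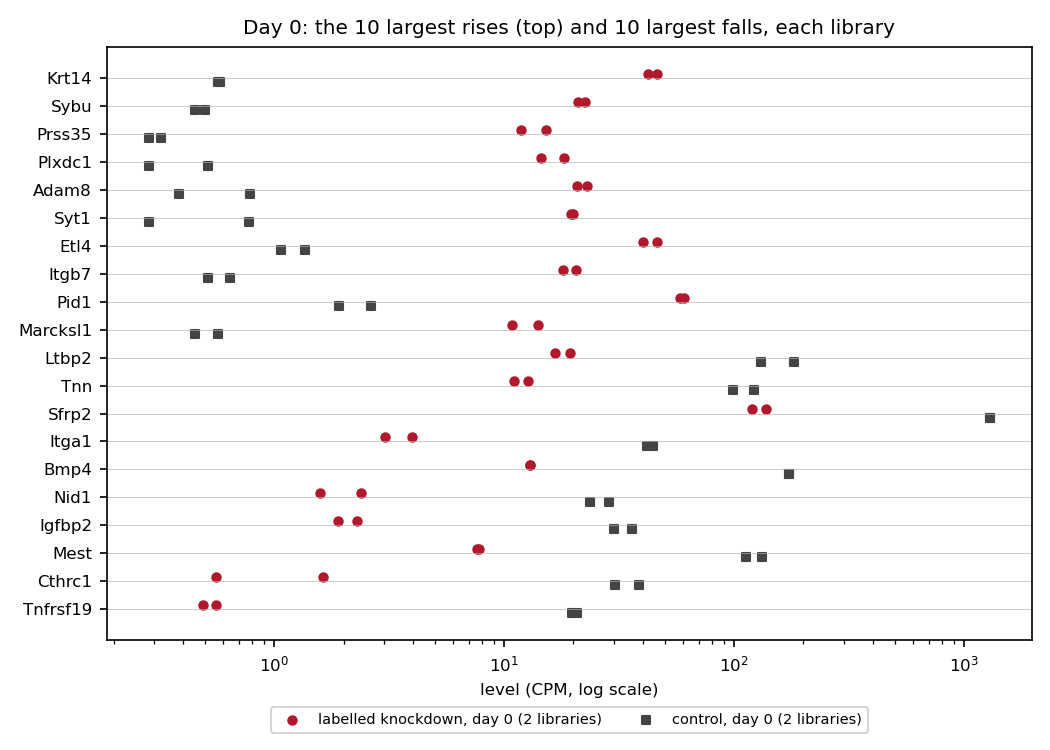
Level in CPM (log axis) of the 10 largest rises and 10 largest falls in each day 0 library, with circles for the 2 libraries labelled knockdown and squares for the 2 controls. Only genes whose groups did not overlap could enter, so in every row both circles lie on the same side of both squares. Krt14 is at the top, at 46.1 and 42.1 CPM against 0.581 and 0.569 CPM. Tnfrsf19 is at the bottom, at 0.488 and 0.560 CPM against 19.6 and 20.8 CPM.

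By the size of the change in CPM, which favours long and abundant transcripts, the largest gains were mt-Co1, Spp1, Anxa1, Malat1 and mt-Nd1. Mt-Co1, a mitochondrially encoded subunit of cytochrome oxidase, had 16724 and 17522 CPM in the libraries labelled knockdown, against 12197 and 11718 CPM in control (0.52, SE 0.14, adjusted p = 0.0257). Anxa1, a calcium-dependent membrane-binding protein, had 4422 and 4009 CPM, against 1993 and 1733 CPM in control (1.18, SE 0.14, adjusted p = 0.000499). Malat1, a nuclear long noncoding RNA, had 4927 and 4356 CPM, against 2402 and 2241 CPM in control (SE of the log2 fold change 0.13, adjusted p = 0.00103). Of 13 mitochondrially encoded transcripts, 9 rose and 0 fell in edgeR, DESeq2 and limma alike, with 0 lower at an unadjusted p under 0.05 (median 0.57), and together they made 32663 and 35011 CPM of the libraries labelled knockdown and 22178 and 22602 CPM of control. The call of mt-Co1 was lost without any of the 4 libraries (adjusted p of 0.068 or more), and without control replicate 2 the list held 6 that rose. Mt-Nd1 and mt-Nd3, subunits of complex I, rose by 0.73 and 0.72 (adjusted p = 0.0038 and 0.00168), and mt-Atp6, of the ATP synthase, by 1.07 (adjusted p = 0.026). With the spread of all 14 libraries mt-Co1, mt-Atp6 and Malat1 did not pass (adjusted p = 0.681, 0.479 and 0.187).

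The largest losses in CPM were Ptn, Rpl21, Col1a1, Col6a1 and Postn. Ptn, which encodes the heparin-binding growth factor pleiotrophin, had 2363 and 1394 CPM in the libraries labelled knockdown, against 6038 and 3770.4 CPM in control (−1.38, SE 0.28, adjusted p = 0.00742). Within each group replicate 1 was the higher of the pair, and the groups did not overlap. Postn, which encodes periostin, a matrix protein of the periosteum, had 497 and 471 CPM, against 2291 and 2070.0 CPM in control (−2.17, SE 0.12, adjusted p = 1.31e-05). Rpl21, a ribosomal protein gene with near-identical copies, is uncertain because the counting is not given; its log2 fold change was −0.61 (adjusted p = 0.0297) and did not pass in 5 of the alternatives run. Ptn also did not pass with the spread of all 14 libraries (adjusted p = 0.134).

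Genes of the mature osteoblast moved strongly and in both directions at day 0. Here and for each list below, the counts stand beside 14.5% of all genes that rose and 14.0% that fell. Of 22 mature osteoblast genes tested, 6 rose, 13 fell and 3 did not pass, with a median log2 fold change of −0.65. Together they made 17437 and 16732 CPM of the libraries labelled knockdown and 23600.1 and 23555 CPM of control. Ibsp, a bone sialoprotein that nucleates mineral, had 1.46 and 2.73 CPM, against 15.0 and 10.2 CPM in control (−2.62, SE 0.32, adjusted p = 0.000694). Alpl (ENSMUSG00000028766.8, chromosome 4, 137741733 to 137796384, GRCm38) had 4 and 3 counts in the libraries labelled knockdown, against 45 and 37 in control (fitted log2 fold change −3.65, SE 0.48, adjusted p = 0.00101), so its level was low in both groups. Col1a1, the main collagen chain of bone, had 2558 and 2746 CPM, against 4226 and 4987 CPM in control (−0.80, SE 0.14, adjusted p = 0.00373). In each of the 3 genes both libraries labelled knockdown lay below both controls. With the spread of all 14 libraries 4 of the list rose and 6 fell, and Col1a1 did not pass (adjusted p = 0.0528); with 13 libraries 6 rose and 13 fell.

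The 6 genes of that list that rose included Dmp1, Mmp13, Tnfrsf11b and Spp1. Dmp1 (ENSMUSG00000029307.7, chromosome 5, 104202613 to 104214102, GRCm38), a matrix phosphoprotein known from osteocytes, had 128 and 107 CPM in the libraries labelled knockdown, against 14.8 and 12 CPM in control (3.13, SE 0.15, adjusted p = 4.75e-06). Mmp13, a collagenase of bone and growth plate, had 28.2 and 27.2 CPM, against 4.71 and 5.40 CPM in control (2.45, SE 0.16, adjusted p = 2.09e-05). Spp1, osteopontin, had 4205 and 3841 CPM, against 2027 and 1793 CPM in control (1.07, SE 0.13, adjusted p = 0.00072). In all 3 each library labelled knockdown lay above each control library. Tnfrsf11b, the decoy receptor that restrains osteoclast formation, had 40.2 and 39.0 CPM, against 13.7 and 12.4 CPM in control (1.60, SE 0.13, adjusted p = 7.18e-05), and did not pass with the spread of all 14 libraries (adjusted p = 0.141).

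Runx2 binds the letters TGTGGTT, which were searched on both strands in the window from 250 bases before to 50 after the start of each gene (RefSeq, GRCm38.p6). Of the 22 mature osteoblast genes, 17 had a promoter in the table, and 4 of those (Spp1, Slc20a1, Dmp1 and Mmp13, 23.5%) held the letters, against 3.35% of the 8947 tested genes with a promoter. The next 3 windows are shown because they belong to 3 of the genes that rose while Runx2 fell, and the fourth is that of Runx2. Each is given 5′ to 3′ on the gene's strand, with the match in capitals. In all 4 windows it appears as AACCACA, which reads TGTGGTT on the opposite strand. Their positions are chr9:7272264-7272563 (plus strand) for Mmp13, chr5:104434861-104435160 (plus) for Spp1, chr5:104202367-104202666 (plus) for Dmp1 and chr17:44814578-44814877 (minus) for Runx2.
Mmp13: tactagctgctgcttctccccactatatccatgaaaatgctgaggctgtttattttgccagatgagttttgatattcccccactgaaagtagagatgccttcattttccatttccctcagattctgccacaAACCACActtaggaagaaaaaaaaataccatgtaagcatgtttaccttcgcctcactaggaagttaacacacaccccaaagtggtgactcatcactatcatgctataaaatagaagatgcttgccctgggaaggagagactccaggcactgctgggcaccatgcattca
Spp1: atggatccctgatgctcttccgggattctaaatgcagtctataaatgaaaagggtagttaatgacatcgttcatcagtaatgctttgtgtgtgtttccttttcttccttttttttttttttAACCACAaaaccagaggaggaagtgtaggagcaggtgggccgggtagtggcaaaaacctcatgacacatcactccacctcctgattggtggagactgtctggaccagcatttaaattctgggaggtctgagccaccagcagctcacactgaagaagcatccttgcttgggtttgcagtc
Dmp1: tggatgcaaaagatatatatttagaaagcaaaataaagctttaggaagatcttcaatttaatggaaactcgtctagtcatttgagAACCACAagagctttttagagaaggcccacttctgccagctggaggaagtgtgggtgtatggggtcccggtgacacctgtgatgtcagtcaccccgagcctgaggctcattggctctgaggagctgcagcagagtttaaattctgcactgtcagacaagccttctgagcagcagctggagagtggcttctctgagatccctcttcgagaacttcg
Runx2: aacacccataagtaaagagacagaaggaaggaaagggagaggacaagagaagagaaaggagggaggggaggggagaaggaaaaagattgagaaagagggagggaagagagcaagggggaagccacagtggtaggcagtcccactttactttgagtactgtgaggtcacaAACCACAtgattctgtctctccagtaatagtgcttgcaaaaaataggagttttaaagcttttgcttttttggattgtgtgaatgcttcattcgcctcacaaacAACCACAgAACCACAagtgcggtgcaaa
The match began 119, 129 and 165 bases before the start of Mmp13, Spp1 and Dmp1. Runx2 held 3 matches, 1 at 81 bases before the start and 2 at positions 23 and 31 after it. A match describes the letters and does not show that a factor binds there.

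Of 20 osteoblast transcription factors tested, 2 rose, 6 fell and 12 did not pass, with a median of 0.03, beside 28.4% of all genes that passed in either direction. In DESeq2 and in limma 1 rose, and with the spread of all 14 libraries 0 rose (also 0 at an unadjusted p under 0.05) and 1 fell. Runx2 (ENSMUSG00000039153.14, minus strand of chromosome 17, 44495987 to 44814797, GRCm38) had 56.5 and 47.7 CPM in the libraries labelled knockdown, against 86.8 and 80.4 CPM in control (−0.68, SE 0.12, adjusted p = 0.00356). It overlaps Supt3 and an antisense transcript. The libraries were directional, but the strand setting of the counting is not given, so some of its reads may be theirs; the same holds for the overlapping genes Ctnnb1, Ccnd1, Sfrp2, Adam8, Mest, Ltbp2, Malat1, Map1a, Plec, Tagln, Itga10, Ctnnd1, Mef2a, Gli1, Atf5, Ddit3, Acss2, Tk1, Nek2, Rb1, mt-Atp6 and S100a4. Runx1, a relative best known from blood formation, had 36.1 and 41.0 CPM, against 69.4 and 86.5 CPM in control (−1.02, SE 0.14, adjusted p = 0.00103). Sp7 had 31.5 and 35.6 CPM, against 40.1 and 38.3 CPM in control, without overlap but not passing (−0.23, SE 0.12, adjusted p = 0.189). With scaling within chromosomes Sp7 fell by 0.62 (adjusted p = 0.00609); it lies on chromosome 15, described below. Mef2a, a muscle and bone enhancer factor, had 257 and 234 CPM, against 122 and 110.1 CPM in control (1.08, SE 0.11, adjusted p = 0.000236). Msx1, a homeobox factor of skull and teeth, fell by 0.79 (adjusted p = 0.0134), a call lost without control replicate 1 (adjusted p = 0.0543) and with scaling within chromosomes (adjusted p = 0.0866). Without control replicate 1, control replicate 2 or knockdown replicate 1, 1 gene of the list rose, and its median turned to −0.03, −0.02 and −0.06 without control replicate 1, knockdown replicate 1 and knockdown replicate 2, and to −0.13 with scaling within chromosomes. Runx2, Mef2a and Msx1 did not pass with the spread of all 14 libraries (adjusted p = 0.0576, 0.255 and 0.267).

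Osteocyte genes, known from cells embedded in bone, were split, with 50% passing in either direction, beside 28.4% of all genes. Of 14 tested, 5 rose and 2 fell (median −0.01, but 0.03 to 0.04 without control replicate 1, control replicate 2 or knockdown replicate 2 and 0.08 with scaling within chromosomes), with 3 higher without control replicate 1 and 1 lower without knockdown replicate 2. With scaling within chromosomes 3 rose and 1 fell. Phex, an endopeptidase of phosphate balance, had 53 and 49 counts in the libraries labelled knockdown, against 5 and 9 in control (2.70, SE 0.44, adjusted p = 0.00277). Ackr3, a scavenger receptor of the chemokine Cxcl12, had 25.2 and 21.2 CPM, against 10.8 and 11.8 CPM in control (1.04, adjusted p = 0.00165). Npnt, nephronectin, an integrin ligand of bone and kidney matrix, had 44.7 and 46.6 CPM, against 359 and 411 CPM in control (−3.07, SE 0.12, adjusted p = 2.43e-06). The groups did not overlap in any of the 3.

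Matrix genes were lower as groups. Of 45 genes for collagen chains or enzymes that modify them, 30 fell, 6 rose and 9 did not pass, with a median of −0.49, beside 14.0% of all genes that fell and a median of −0.0048. Their summed level was 18753 and 19016 CPM in the libraries labelled knockdown and 27405 and 30305 CPM in control. Col6a1, a chain of the beaded filaments around cells, had 1753 and 1704 CPM, against 3657 and 3821 CPM in control (−1.11, SE 0.12, adjusted p = 0.000389). Adamts2, which removes the amino propeptide of procollagens, had 19.1 and 18.6 CPM, against 119 and 118 CPM in control (−2.65, SE 0.11, adjusted p = 3.23e-06). Col24a1, a fibrillar chain of developing bone, had 2.66 and 2.03 CPM, against 10.6 and 11.9 CPM in control (−2.25, adjusted p = 0.000261). Pcolce2, an enhancer of procollagen C-proteinase, went the other way, with 58.0 and 59.9 CPM against 5.81 and 6.61 CPM in control (3.25, SE 0.14, adjusted p = 3.38e-06). With 1 library left out, 25 to 27 genes of the list fell. When the spread came from all 14 libraries 2 rose and 12 fell, and with 13 libraries 7 rose and 30 fell.

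Of 41 proteoglycans and other matrix proteins, 2 rose, 28 fell and 11 did not pass, with a median of −0.71. Thbs1, thrombospondin, a matrix protein that activates latent TGF-beta, had 28.0 and 25.1 CPM in the libraries labelled knockdown, against 230.0 and 225 CPM in control (−3.10, SE 0.11, adjusted p = 2.32e-06). Nid1 had 1.57 and 2.38 CPM, against 23.7 and 28.5 CPM in control (−3.74, SE 0.23, adjusted p = 1.68e-05). Matn4, a filament-forming matrilin, had 27.1 and 23.6 CPM, against 177 and 169 CPM in control (−2.77, SE 0.12, adjusted p = 3.38e-06). Dcn, decorin, a small proteoglycan that binds collagen and growth factors, was among the 2 that rose, with 316 and 285 CPM against 95.7 and 89.5 CPM in control (1.70, SE 0.11, adjusted p = 2.06e-05). All 4 genes separated the groups without overlap. Without control replicate 1 or knockdown replicate 2, and with scaling within chromosomes, 1 gene of the list rose, and 25 to 26 fell with 1 library left out. Over all 14 libraries 1 rose and 18 fell, and with 13 libraries 3 rose and 27 fell.

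Matrix proteases and their inhibitors moved in both directions, with 6 of 27 higher and 8 lower (median −0.06). Adam12, a membrane protease of mesenchyme, had 14.5 and 15.1 CPM in the libraries labelled knockdown, against 47.7 and 51.6 CPM in control (−1.75, SE 0.12, adjusted p = 3.5e-05). Mmp13, with its rise of 2.45, stood against it. Without control replicate 2 or knockdown replicate 1, 5 genes of the list fell, and without knockdown replicate 2 the median was 0.04. In limma 5 fell and the median was 0.0052, and with the spread of all 14 libraries 4 fell.

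Genes of the Wnt pathway bear on the series' question. Over all genes 14.5% rose and 14.0% fell. Of 27 canonical Wnt targets tested, 12 fell, 6 rose and 9 did not pass, with a median of −0.44. Their CPM summed to 2063 and 2044 in the libraries labelled knockdown, above the 1799 and 1901 in control. Without control replicate 1, 4 rose; with the spread of all 14 libraries 1 rose and 7 fell, and with 13 libraries 7 rose and 12 fell. Axin2, the feedback inhibitor that is a standard readout of the pathway, had 2.93 and 3.36 CPM in the libraries labelled knockdown, against 8.32 and 11.1 CPM in control (−1.63, SE 0.24, adjusted p = 0.00165). Myc, a growth regulator, had 23.2 and 30.1 CPM, against 57.6 and 57.0 CPM in control (−1.11, SE 0.14, adjusted p = 0.000767). Lef1, a DNA-binding partner of beta-catenin, had 1.57 and 2.17 CPM, against 4.64 and 3.06 CPM in control (−1.06, SE 0.34, adjusted p = 0.0465). For all 3 the groups did not overlap, but at 29 and 31 against 72 and 43 counts the call of Lef1 was lost without control replicate 1 or knockdown replicate 1 (adjusted p = 0.254 and 0.156), with DESeq2 and with limma (adjusted p = 0.102 and 0.0755), and with the spread of all 14 libraries (adjusted p = 0.0901). Ccnd1, the cyclin of early G1 and a target as well, had 685 and 691 CPM, against 472 and 519 CPM in control (0.47, SE 0.11, adjusted p = 0.013), a rise that did not pass without control replicate 1 (adjusted p = 0.0998) or with the spread of all 14 libraries (adjusted p = 0.111). Of the listed targets described above, Tnfrsf19 fell by 5.26 and Tnfrsf11b rose by 1.60 (adjusted p = 4.2e-06 and 7.18e-05). Tnfrsf11b did not pass with the spread of all 14 libraries (adjusted p = 0.141). The Tcf and Lef letters CTTTGAT were searched on both strands. They were in 0 of 17 promoters of the listed Wnt targets and in 2.44% of those of all genes.

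Ctnnb1, which encodes beta-catenin, fell at day 0, with 452 and 458 CPM in the libraries labelled knockdown, against 653 and 669 CPM in control (−0.54, SE 0.10, adjusted p = 0.00593). It overlaps Ulk4 on the other strand, lies on chromosome 9, and did not pass with the spread of all 14 libraries (adjusted p = 0.187). Of 36 pathway components from ligand to nucleus, 10 fell and 7 rose (median −0.0062, and 0.03 and 0.09 without control replicate 2 and knockdown replicate 1), and 4 rose without control replicate 1. Ror1, a receptor for Wnt5 ligands, had 3.69 and 2.94 CPM, against 17.7 and 12.8 CPM in control (−2.19, adjusted p = 0.000352). Fzd8, a Frizzled receptor, fell by 1.55 (adjusted p = 0.000691), and Wnt6, a ligand, rose by 1.65 (adjusted p = 0.00127). Among 6 secreted antagonists, 1 rose and 1, Sfrp2, fell, with 2 higher without control replicate 2 or knockdown replicate 1. With the spread of all 14 libraries 2 of the 36 components rose and 3 fell, and with 13 libraries 6 rose and 10 fell. Fzd8 did not pass with all 14 (adjusted p = 0.0543).

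Of 25 nuclear repressors of Wnt or Runx2 activity, 4 rose, 5 fell and 16 did not pass, with a median of −0.02. In either direction 36% passed, beside 28.4% of all genes. Tcf12, a basic helix-loop-helix factor, had 133 and 132 CPM in the libraries labelled knockdown, against 132 and 127 CPM in control (0.03, SE 0.10, 95% interval −0.19 to 0.25, adjusted p = 0.85). E2f6, an E2F family repressor, had 31.3 and 33.8 CPM, against 32.5 and 35.2 CPM in control (−0.06, SE 0.12, interval −0.33 to 0.21, adjusted p = 0.751), and its sign turned with limma and without control replicate 2. For both genes the groups overlapped. Smad6, an inhibitor of BMP signalling and of Runx2, had 9.87 and 6.93 CPM, against 44.1 and 43.0 CPM in control (−2.36, SE 0.17, adjusted p = 4.01e-05). Sirt1, a deacetylase, rose by 0.77 (adjusted p = 0.00277) and Zfp521, a zinc-finger repressor of Runx2, fell by 0.72 (adjusted p = 0.00183). Without control replicate 2 or knockdown replicate 1, and with scaling within chromosomes, 2 genes of the list rose. With the spread of all 14 libraries 0 of the 25 repressors rose (2 at an unadjusted p under 0.05) and 1 fell. With 13 libraries 4 rose and 6 fell. Sirt1 and Zfp521 did not pass with all 14 (adjusted p = 0.492 and 0.103).

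Ligands, receptors and feedback genes of other growth pathways also differed, beside 14.5% of all genes that rose and 14.0% that fell. In BMP and TGF-beta signalling 3 of 41 genes rose, 18 fell and 20 did not pass (median −0.39), and 1 rose without control replicate 1. With the spread of all 14 libraries 1 rose and 9 fell, and with 13 libraries 3 rose and 18 fell. Bmp4 and Smad6, given above, led the falls together with Ltbp2, which had 16.7 and 19.3 CPM, against 131 and 181 CPM in control (adjusted p = 1.1e-05). In FGF signalling 6 of 17 rose and 4 fell (median 0.30), but without control replicate 1 2 rose and without knockdown replicate 2 4 rose. Fgfr3, a receptor that restrains bone growth, had 7.43 and 7.91 CPM, against 26.5 and 24.2 CPM in control (−1.73, SE 0.15, adjusted p = 0.000106). Dusp6 and Dusp5, phosphatases that act on ERK and follow its activity, rose by 1.19 and 1.09 (adjusted p = 0.00128 and 0.000924).

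Of 14 Notch genes 2 rose and 4 fell (median −0.31), with 6 lower without knockdown replicate 2. Dtx4, a Deltex ubiquitin ligase, had 8.79 and 10.9 CPM in the libraries labelled knockdown, against 2.90 and 3.27 CPM in control (1.67, adjusted p = 0.00115). Lfng, which adds sugar to Notch receptors, had 11.1 and 15.9 CPM, against 38.4 and 45.6 CPM in control (−1.65, adjusted p = 0.000403), and the receptor gene Notch3 fell by 1.40 (adjusted p = 0.00597). Among 17 IGF genes 5 rose and 7 fell (median −0.25), beside 14.5% and 14.0% of all genes. Igfbp2 had 2.28 and 1.89 CPM, against 35.8 and 30.1 CPM in control (−3.97, SE 0.19, adjusted p = 5.16e-06). Irs1, the docking protein of the insulin and IGF receptors, fell by 1.92 (adjusted p = 1.76e-05), and Pappa2, a protease of IGF binding proteins, by 1.86 (adjusted p = 3.53e-05). In every one of these 6 genes the groups did not overlap.

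Of 8 Hedgehog genes 1 rose and 3 fell (median −0.27), and 2 fell without control replicate 2, without knockdown replicate 1 and with scaling within chromosomes. Gli1, the transcription factor and standard target of the pathway, had 10.5 and 11.9 CPM in the libraries labelled knockdown, against 1.29 and 1.49 CPM in control (3.00, SE 0.24, adjusted p = 7.8e-05). Cdon and Boc, co-receptors for the ligand, fell by 1.43 and 1.10 (adjusted p = 0.000115 and 0.000252; Cdon 0.05 with all 14 libraries). Guidance molecules were split, with 7 of 37 higher and 14 lower (median −0.08), beside 14.5% and 14.0% of all genes. Robo2, a receptor for Slit, had 11.4 and 8.96 CPM, against 0.581 and 0.782 CPM in control (3.90, SE 0.30, adjusted p = 6.19e-05). Unc5b, a netrin receptor, fell by 2.76 (adjusted p = 0.000442) and Epha4, an ephrin receptor, by 1.94 (adjusted p = 0.000653).

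Adhesion genes changed in both directions, which is of interest for a protein that steers microtubules to adhesions. Among all genes 14.5% rose and 14.0% fell. Of 25 integrins and focal adhesion proteins, 9 rose, 10 fell and 6 did not pass (median −0.10, and 0.02 without control replicate 2). Itgb7 had 18.0 and 20.4 CPM in the libraries labelled knockdown, against 0.516 and 0.640 CPM in control (adjusted p = 6.82e-06). Itga10, a collagen-binding chain of cartilage, had 23.3 and 21.8 CPM, against 2.13 and 2.92 CPM in control (3.16, SE 0.20, adjusted p = 2.06e-05). Itga1, also collagen-binding, had 3.04 and 3.99 CPM, against 41.9 and 44.2 CPM in control (adjusted p = 4.2e-06). The integrin chains of these libraries thus differed gene by gene. Of 9 cadherins and catenins 2 rose and 3 fell (median 0.02). Ctnnd1, which encodes p120 catenin, fell by 0.80 (adjusted p = 0.00154), and Cdh2, N-cadherin, by 0.44 (adjusted p = 0.0115), a call lost without control replicate 1 (adjusted p = 0.0554). The median of that list was −0.04 without control replicate 2 and −0.06 without knockdown replicate 1 or with scaling within chromosomes. Ctnnd1 and Cdh2 did not pass with the spread of all 14 libraries (adjusted p = 0.314 and 0.27).

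Contractile genes and targets of YAP and SRF, which respond to tension on the actin cytoskeleton, leaned lower, with 4 of 23 higher and 10 lower (median −0.24). Tagln, an actin-binding protein of contractile cells, had 21.7 and 23.3 CPM in the libraries labelled knockdown, against 67.1 and 64.9 CPM in control (−1.55, SE 0.11, adjusted p = 3.73e-05). Cyr61, a matricellular YAP target, had 117 and 126 CPM, against 266 and 286 CPM in control (−1.18, SE 0.10, adjusted p = 0.000115). Ctgf, its relative, had 4.99 and 5.25 CPM, against 11.5 and 12.7 CPM in control (−1.24, SE 0.19, adjusted p = 0.00181). The groups did not overlap in any of the 3 genes. Their calls held with the spread of all 14 libraries, where 0 genes of the list rose and 4 fell.

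Genes of DNA replication were lower as a group, while the proliferation marker Mki67 was not. Of 41 replication genes, 0 rose (0 by DESeq2 and limma too, 1 at an unadjusted p under 0.05 in edgeR), 19 fell and 22 did not pass, with a median of −0.37. Their summed level was 2112 and 2152 CPM in the libraries labelled knockdown and 2704 and 2743 CPM in control. Tk1, thymidine kinase, had 15.5 and 13.2 CPM, against 33.4 and 34.4 CPM in control (−1.24, SE 0.14, adjusted p = 0.000382). Mcm6, a subunit of the replicative helicase, had 155 and 155 CPM, against 264 and 254 CPM in control (−0.74, SE 0.10, adjusted p = 0.000936), and Rfc2, a subunit of the clamp loader, fell by 0.80 (adjusted p = 0.00115). With 1 library left out 15 to 17 of the list fell, in limma 11 fell, with 13 libraries 19 fell, and with the spread of all 14 libraries 2 fell, with Tk1 and Rfc2 not passing (adjusted p = 0.0509 and 0.108). Mki67 had 479 and 485 CPM, against 437 and 444 CPM in control (0.13, SE 0.10, adjusted p = 0.372).

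Replication genes are classical targets of E2F factors. The letters TTTCCCGC, TTTGGCGC, TTTGCCGC and TTTCGCGC, searched on both strands, were in 11 of the 31 promoters of this list that the table held (35.5%), against 4.26% of all 8947. Mcm6 is shown because it holds 3 such matches and fell. Its window is chr1:128359656-128359955 (minus strand, GRCm38.p6), given 5′ to 3′ with matches in capitals.
Mcm6: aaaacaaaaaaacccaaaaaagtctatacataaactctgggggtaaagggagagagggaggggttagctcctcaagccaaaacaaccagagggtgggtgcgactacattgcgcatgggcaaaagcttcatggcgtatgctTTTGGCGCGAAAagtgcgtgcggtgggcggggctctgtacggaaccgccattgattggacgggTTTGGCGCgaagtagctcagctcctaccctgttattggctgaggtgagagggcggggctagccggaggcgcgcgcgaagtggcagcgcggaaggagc
The matches began 110, 106 and 47 bases before the start, and the first pair overlap each other, the second of them lying on the opposite strand.

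Of 43 genes of G2 and mitosis, 2 rose, 14 fell and 27 did not pass, with a median of −0.04, beside 14.5% of all genes that rose and 14.0% that fell. Nek2, a centrosome kinase, fell by 0.65 (adjusted p = 0.00403), Mad2l1, of the spindle checkpoint, by 0.59 (adjusted p = 0.00315), and Plk1, a mitotic kinase, by 0.58 (adjusted p = 0.00906). The number that fell was 9 without control replicate 1, 8 without knockdown replicate 1, 7 in limma, where the median was 0.02, and 5 with scaling within chromosomes. Taking the spread of all 14 libraries, 0 rose and 0 fell (0 and 3 at an unadjusted p under 0.05), with 13 libraries 3 rose and 14 fell, and all 3 named calls were lost with all 14 (adjusted p = 0.335, 0.137 and 0.161). Of 19 G1 cyclins and CDK inhibitors 4 rose and 4 fell (median −0.06), with 2 higher without control replicate 1 and 1 lower with scaling within chromosomes. Rb1, the retinoblastoma protein that restrains E2F factors, had 31.5 and 26.9 CPM in the libraries labelled knockdown, against 18.9 and 12.5 CPM in control (0.89, SE 0.19, adjusted p = 0.0103). It overlaps Lpar6 and Rcbtb2 and did not pass with the spread of all 14 libraries (adjusted p = 0.164).

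Targets of p53 leaned higher, with 9 of 20 up and 1 down (median 0.20), beside 14.5% and 14.0% of all genes. Cdkn1a, the p21 inhibitor of cyclin-dependent kinases, had 237 and 252 CPM in the libraries labelled knockdown, against 137 and 148 CPM in control (0.78, SE 0.10, adjusted p = 0.000924). Mdm2, the ubiquitin ligase that restrains p53, had 292 and 295 CPM, against 168 and 171 CPM in control (0.79, SE 0.10, adjusted p = 0.00065). Trp53inp1, a p53-induced nuclear protein, had 164 and 152 CPM, against 90.9 and 74.7 CPM in control (0.93, SE 0.12, adjusted p = 0.000924). In all 3 genes the groups did not overlap. With scaling within chromosomes 6 of the list rose, without knockdown replicate 2 2 fell, and with the spread of all 14 libraries 1 rose and these 3 did not pass (adjusted p = 0.126, 0.178 and 0.109). With 13 libraries 9 rose.

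Immediate early genes, which answer growth factors and handling within minutes, also leaned higher, with 10 of 25 up and 4 down (median 0.34). Klf4, a zinc-finger factor, had 126 and 134 CPM in the libraries labelled knockdown, against 27.5 and 21.9 CPM in control (2.39, SE 0.13, adjusted p = 1.03e-05). Egr2 had 25.8 and 31.2 CPM, against 11.8 and 10.6 CPM in control (1.34, adjusted p = 0.000475), and the nuclear receptor gene Nr4a2 rose by 1.31 (adjusted p = 0.00381). Among 31 NRF2 and glutathione genes 11 rose and 7 fell (median 0.10), and the number that rose was 5 without knockdown replicate 1 and 7 without control replicate 1 or knockdown replicate 2, with 4 lower without knockdown replicate 1. Nqo1, a quinone reductase, had 170.4 and 179 CPM, against 30.6 and 30.4 CPM in control (2.52, SE 0.10, adjusted p = 3.38e-06). Aldh3a1, an aldehyde dehydrogenase, rose by 1.42 (adjusted p = 0.00172) and Gpx7, a peroxidase of the endoplasmic reticulum, fell by 1.35 (adjusted p = 0.000116). The antioxidant response letters TGACNNNGC, searched on both strands, were in 7 of 25 promoters of this list (28.0%) and in 14.9% of all.

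Of 28 unfolded protein and amino acid stress genes 3 rose and 3 fell (median 0.11; 21.4% in either direction, beside 28.4% of all genes), and 5 higher without knockdown replicate 1. Atf5 and Ddit3, stress transcription factors, rose by 0.84 and 0.79 (adjusted p = 0.00701 and 0.00558), and Mthfd2, a mitochondrial folate enzyme, fell by 0.92 (adjusted p = 0.000441). Interferon-stimulated and double-stranded RNA response genes, of interest because hairpin RNAs can trigger them, had 3 of 40 higher and 12 lower (median −0.27), with 5 lower without control replicate 1 and 7 lower in DESeq2 and in limma. In the fit of all 14 libraries 0 fell (7 at an unadjusted p under 0.05), and with 13 libraries 12 fell. Psmb8, an immunoproteasome subunit, had 27.5 and 31.7 CPM in the libraries labelled knockdown, against 71.6 and 70.3 CPM in control (−1.26, SE 0.11, adjusted p = 0.000143). Oasl2, related to the 2′-5′ oligoadenylate synthetases, fell by 1.49 (adjusted p = 0.0023), and Ifit1, an RNA-binding effector, by 1.12 (adjusted p = 0.0221), lost without control replicate 1 (adjusted p = 0.0516). Atf5, Ddit3, Psmb8, Oasl2 and Ifit1 did not pass with the spread of all 14 libraries (adjusted p = 0.281, 0.247, 0.0579, 0.0576 and 0.0791).

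Of 26 chemokines, cytokines and NF-kappaB targets 8 rose and 9 fell (median 0.10, and −0.06 without control replicate 1, −0.01 without knockdown replicate 2 and −0.07 with scaling within chromosomes). Il1rn, the interleukin-1 receptor antagonist, had 5 and 1 counts in the libraries labelled knockdown, against 491 and 427 in control (fitted log2 fold change −7.34, SE 0.30, adjusted p = 3.23e-06). Lifr, the receptor of leukaemia inhibitory factor, had 12.9 and 13.9 CPM, against 69.2 and 58.9 CPM in control (−2.26, SE 0.13, adjusted p = 1.45e-05). Ccl2, a monocyte attractant, fell by 1.86 (adjusted p = 0.000181). Icam1, an adhesion molecule that was chosen after its values were seen, had 26 and 12 counts, against 0 and 0 in control, at least 11.45-fold higher over a floor of 3 counts.

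Of the genes of glycolysis and hypoxia, of cholesterol and fatty acid synthesis, and of lysosome and autophagy, 41.2%, 37.5% and 44.8% passed in either direction, beside 28.4% of all genes. Of 34 glycolysis and hypoxia genes 8 rose and 6 fell (median 0.02), with 5 higher without control replicate 1 or knockdown replicate 2 and 3 lower without control replicate 2. Hk2, which phosphorylates glucose, had 10.7 and 10.5 CPM in the libraries labelled knockdown, against 27.6 and 31.9 CPM in control (−1.48, SE 0.14, adjusted p = 0.000188). Pfkfb3, a regulator of glycolytic flux, fell by 1.12 (adjusted p = 0.00522) and P4ha2, a collagen prolyl hydroxylase, by 0.95 (adjusted p = 0.000433). Of 32 cholesterol and fatty acid synthesis genes 2 rose and 10 fell (median −0.19), with 4 higher without knockdown replicate 1 and 6 lower with scaling within chromosomes. Ebp and Sc5d, enzymes of late sterol synthesis, fell by 0.86 and 0.77 (adjusted p = 0.00118 and 0.00168), and Acss2, which makes acetyl-CoA, by 0.74 (adjusted p = 0.0053). Of 29 lysosome and autophagy genes 5 rose and 8 fell (median 0.05), but leaving out 1 library left 1 to 3 that rose, the median was −0.02 without knockdown replicate 2, and with scaling within chromosomes 5 fell and the median was −0.03. Ctsh, a cathepsin, and Glb1, the lysosomal galactosidase, fell by 1.58 and 0.90 (adjusted p = 0.000143 and 0.00179), and Tfeb, a transcription factor of lysosome genes, rose by 0.90 (adjusted p = 0.00281). With the spread of all 14 libraries Ebp, Acss2, Tfeb and Glb1 did not pass (adjusted p = 0.283, 0.207, 0.153 and 0.0949).

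Several lists held fewer called genes with the spread of all 14 libraries than with 13. Among plakins and microtubule plus-end proteins 1 rose with all 14 and 5 with 13. In osteocyte genes 3 rose and 1 fell with all 14, and 5 and 3 with 13. In tendon and fibroblast genes 3 rose and 3 fell with all 14, and 6 and 5 with 13. In integrins and focal adhesion proteins 5 rose and 3 fell with all 14, and 9 and 10 with 13. In immediate early genes 5 rose with all 14 and 11 with 13, and in NRF2 and glutathione genes 4 rose and 2 fell with all 14, and 12 and 8 with 13. In chemokines, cytokines and NF-kappaB targets 3 rose with all 14 and 8 with 13, and in glycolysis and hypoxia 2 rose and 3 fell with all 14, and 8 and 6 with 13. In cholesterol and fatty acid synthesis 1 fell with all 14 and 11 with 13, and in lysosome and autophagy 3 and 9. Among mitochondrially encoded transcripts 2 rose with all 14 and 7 with 13. In FGF signalling 2 rose and 2 fell with all 14, and 5 and 4 with 13. In unfolded protein and amino acid stress genes 0 rose with all 14 (2 at an unadjusted p under 0.05) and 1 fell. With 13 libraries 5 of them rose and 2 fell. In G1 cyclins and CDK inhibitors 0 rose with all 14 (3 at an unadjusted p under 0.05) and 1 fell. With 13 libraries 4 of these rose and 4 fell. In limma 3 glycolysis and hypoxia genes fell, 4 cholesterol and fatty acid genes rose and 6 fell, and 4 NRF2 and glutathione genes fell.

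**Figure D3:**
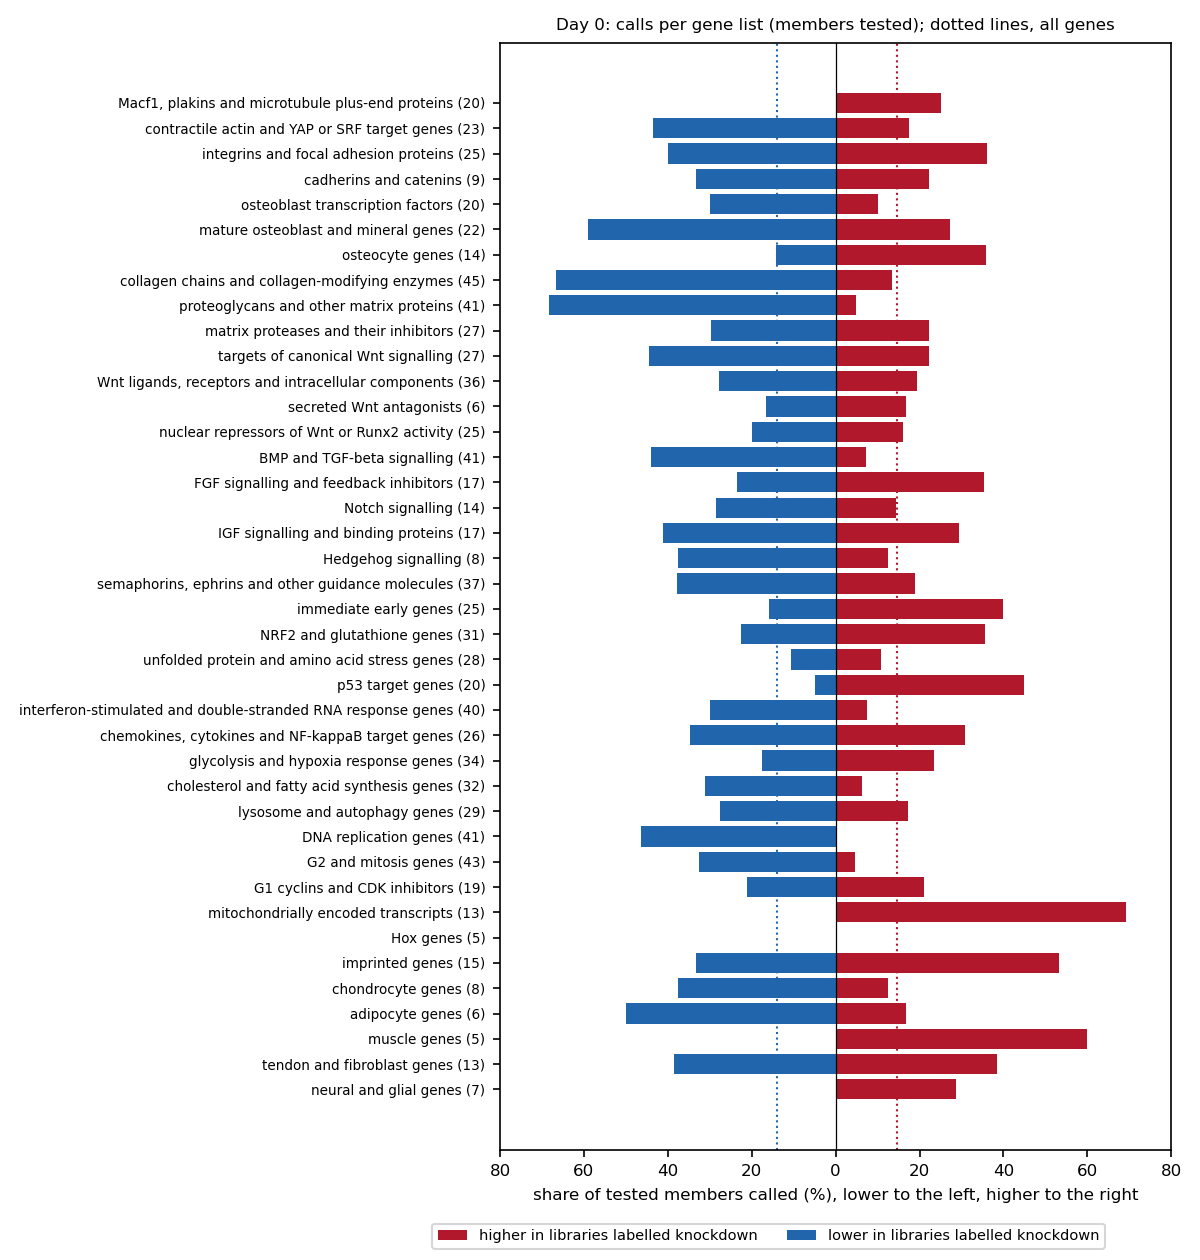
Share of the tested members of gene lists (number tested in brackets) that rose or fell in the libraries labelled knockdown. Red bars to the right are those that rose and blue bars to the left those that fell. Dotted lines stand at the 14.5% and 14.0% of all genes. The endothelial list, the macrophage, osteoclast and blood list and the epithelial list, with 3 tested genes each, are not drawn. The collagen list, with 30 of 45 lower, and the proteoglycan list, with 28 of 41 lower, reach far past the dotted line on the left, and the mitochondrially encoded transcripts, with 9 of 13 higher, reach far past it on the right.

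Imprinted genes, several of which set fetal growth, had 8 of 15 higher and 5 lower (median 0.50), beside 14.5% and 14.0% of all genes. With the spread of all 14 libraries 3 rose and 2 fell, and with 13 libraries 7 rose and 6 fell. Mest, expressed from the paternal copy, had 7.59 and 7.77 CPM in the libraries labelled knockdown, against 132 and 113 CPM in control (−3.99, SE 0.13, adjusted p = 2.08e-06). Plagl1, a zinc-finger regulator of growth, had 14.6 and 16.6 CPM, against 49.1 and 43.0 CPM in control (−1.56, SE 0.13, adjusted p = 0.000107; 0.131 with all 14 libraries). H19, a maternally expressed noncoding RNA, had 120 and 97 counts, against 12 and 3 in control (3.70, SE 0.42, adjusted p = 0.000437). The groups did not overlap in any of the 3. Of 39 Hox genes, which mark position along the body, 5 were tested, and 0 rose and 0 fell in edgeR, DESeq2 and limma, with 0 higher and 4 lower at an unadjusted p under 0.05 in edgeR; 1 or 2 fell without control replicate 2, knockdown replicate 1 or knockdown replicate 2. Hoxa10 was the most abundant of them, at 83 and 56 counts, against 97 and 102 in control (−0.67, adjusted p = 0.0519).

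Markers of other cells were read to see what else the cultures could hold. Macrophage, osteoclast and blood genes summed to 49.2 and 48.9 CPM in the libraries labelled knockdown and 51.8 and 46.9 CPM in control. Of 22 on the list 3 were tested, and 0 were called by edgeR, DESeq2 or limma (0 at an unadjusted p under 0.05). With scaling within chromosomes 1 fell, and Ptprc, Adgre1 and Acp5 were at 0 in all 4 libraries. Endothelial genes summed to 2.71 and 2.02 CPM against 3.02 and 3.88 CPM in control, with Cdh5 and Kdr at 0 in all 4 libraries and 1 of 3 tested genes lower, a call lost without any 1 library. Neural and glial genes summed to 156 and 153 CPM against 106 and 104 CPM in control, with 2 of 7 higher in edgeR, and 0 lower in edgeR, DESeq2 or limma (0 at an unadjusted p under 0.05), while Rbfox3 and Snap25 were at 0 in all 4. Muscle genes summed to 54.9 and 51.6 CPM against 32.8 and 37.8 CPM in control, with 3 of 5 higher in edgeR, and 0 lower in edgeR, DESeq2 or limma (0 at an unadjusted p under 0.05; 2 higher without control replicate 1). Myog, Pax7 and Ckm were at 0 in all 4, and Tnnc1, a troponin, had 16.3 and 14.1 CPM against 6.90 and 9.95 CPM in control (0.86, adjusted p = 0.0159; 0.378 with all 14 libraries). Of the macrophage, osteoclast and blood genes, 10 of 22 were at 0 in all 4 libraries or absent from the count table. So were 5 of 14 endothelial, 6 of 22 neural and glial and 8 of 21 muscle genes. The other genes of these lists had counts, so the genes named at 0 do not show that a cell type was missing. The part of these genes in other results was not tested.

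Genes listed as markers of lineages closer to the osteoblast summed to more CPM than the lists just described, in both groups of libraries. The adipocyte list, for instance, summed to 279 and 256 CPM in the libraries labelled knockdown and 292 and 284 CPM in control. These sums do not show that cells of those lineages were present. Of 8 chondrocyte genes 1 rose and 3 fell (median −0.22), with summed levels of 363 and 337 CPM in the libraries labelled knockdown and 305 and 314 CPM in control. Col2a1, the collagen of cartilage, had 154 and 158 CPM, against 77.1 and 81.3 CPM in control (0.98, SE 0.10, adjusted p = 0.000236), whereas Sox6 and Sox5, factors of the chondrocyte programme, were at −2.57 and −1.23 on the log2 scale (adjusted p = 0.000219 and 0.00329; Sox5 did not pass with all 14 libraries, adjusted p = 0.071). A second chondrocyte gene passed as higher without knockdown replicate 2 and with scaling within chromosomes, where 2 rose. Of 6 adipocyte genes 1 rose and 3 fell (median −0.51), and 2 fell without control replicate 1, control replicate 2 or knockdown replicate 2. Cebpa, an adipogenic factor, had 2.06 and 1.68 CPM, against 9.48 and 10.2 CPM in control (−2.38, adjusted p = 0.000219), and Plin2, a lipid droplet protein of many cells, rose by 1.10 (adjusted p = 0.000272). Zfp423, a preadipocyte factor, fell by 0.58 (adjusted p = 0.0185), a call lost with limma, without control replicate 2 and with all 14 libraries (adjusted p = 0.0767, 0.0627 and 0.166).

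Tendon and fibroblast genes summed to 1536 and 1533 CPM in the libraries labelled knockdown and 1967 and 1984 CPM in control, with 5 of 13 higher and 5 lower. Their median was −0.11, and 0.29 and 0.19 without control replicate 2 and knockdown replicate 1. Cd34, a membrane sialomucin of stromal and blood precursors, had 147 and 143 CPM, against 39.6 and 40.5 CPM in control (1.86, SE 0.10, adjusted p = 9.68e-06). Thy1, a surface glycoprotein of fibroblasts, fell by 1.13 (adjusted p = 0.000392). S100a4, a calcium-binding protein, had 72.2 and 48.7 CPM, against 16.3 and 22.9 CPM in control (1.63, SE 0.22, adjusted p = 0.000992), a rise that did not pass with the spread of all 14 libraries (adjusted p = 0.203).

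Epithelial genes were few. Of 19 on the list 3 were tested, and their sum was 77.9 and 78.1 CPM in the libraries labelled knockdown and 31.7 and 34.9 CPM in control. Besides Krt14, Cdh1 (E-cadherin) rose, with 99 and 116 counts, against 11 and 20 in control (2.66, adjusted p = 0.00142), and Trp63, a factor of basal epithelia, had 23.6 and 24.7 CPM, against 30.5 and 32.3 CPM in control (−0.38, adjusted p = 0.0442), a call lost without any 1 library, with median-of-ratios scaling (adjusted p = 0.05), in DESeq2 and limma (adjusted p = 0.136 and 0.185) and with all 14 libraries (adjusted p = 0.356). Krt5, the usual partner of Krt14, had 3 and 0 counts, against 6 and 0 in control, Krt19 and Esrp1 had 0 in all 4 libraries, and Krt8 had 2 and 6 against 0 and 0. Their part in the other results was not tested.

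Fold changes at day 0 also followed the chromosome on which a gene lies. Over 11499 genes with a position and at least 1 CPM on average, the median log2 fold change of the autosomes and X ran from −0.31 on chromosome 5 to 0.42 on chromosome 15. Chromosome 3 had 0.30 and chromosome 10 had 0.20, while chromosomes 2, 13, 6 and 9 had −0.25, −0.23, −0.22 and −0.21. On chromosome 15, 191 of 454 genes rose (42.1%) and 18 fell (3.96%), and on chromosome 5, 41 of 755 rose (5.43%) and 259 fell (34.3%). The same medians between the 2 replicates of a group ran from −0.05 to 0.07. Each of the 4 pairings of a library labelled knockdown with a control library gave the shifts again, with 0.37 to 0.42 on chromosome 15 and −0.31 to −0.28 on chromosome 5.

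On chromosomes 15 and 2 the shift ran along the whole length. All 6 windows of 20 Mb on chromosome 15 had medians between 0.33 and 0.52, and all 10 on chromosome 2 lay between −0.37 and −0.16. In all, the window medians had 1 sign on 9 of the 20 chromosomes and both signs on 11. The widest range was on X, with a median of −0.43 over the 82 genes in its first 40 Mb, 37 of them lower and 2 higher, and of 0.12 over the 289 genes beyond. Window medians ran from −0.28 to 0.28 on chromosome 1, from −0.35 to 0.18 on chromosome 14, from −0.43 to 0.06 on chromosome 6, from −0.35 to 0.11 on chromosome 9 and from −0.09 to 0.35 on chromosome 8. On chromosome 5 the window from 60 to 80 Mb had a median of 0.03, against −0.39 to −0.16 in the other 7. At day 5, in other libraries, the medians per chromosome differed from those of day 0 by at most 0.063, and all 7 chromosomes beyond 0.2 at day 0 kept their sign. RNA alone was measured; chromosome copy number was not, and it was not tested what sets these shifts.

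The shifts enter the fold changes of single genes. With scaling done within each chromosome, 1485 genes rose and 1190 fell, against 1762 and 1701 with scaling over all genes. At least 2-fold, 586 rose and 361 fell, against 616 and 382. Calls moved as given above for Sp7, Dst, Msx1, Rpl21 and the mitotic genes.

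**Figure D4:**
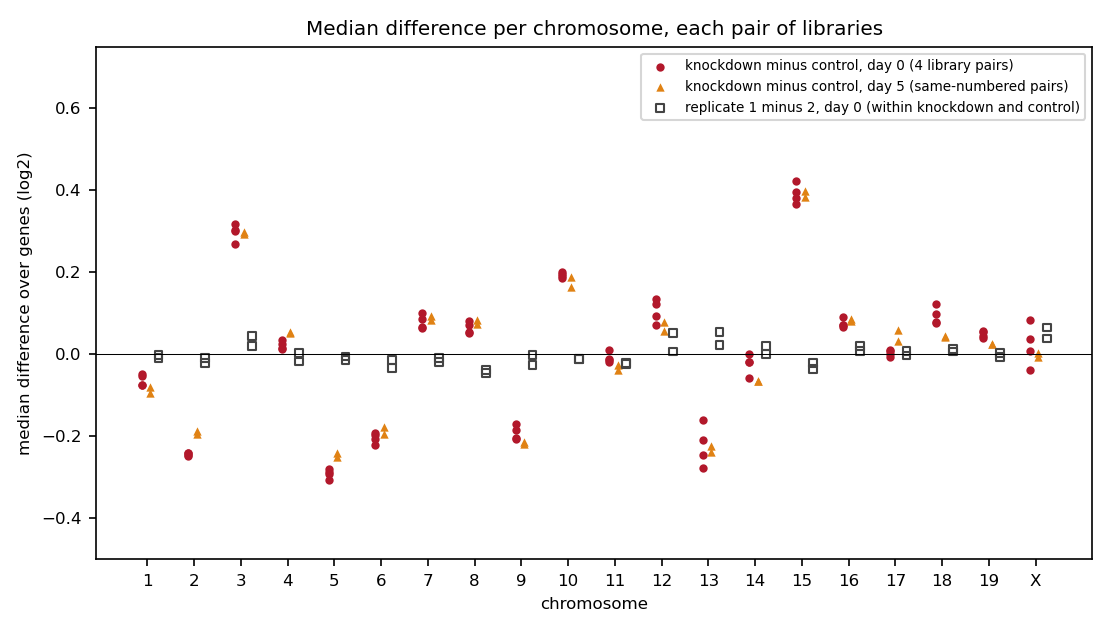
Median log2 difference in level over the genes of each chromosome, in red for the 4 pairings of a library labelled knockdown with a control library at day 0, in orange for the same-numbered pairings at day 5, and in open squares for replicate 1 minus replicate 2 within a group at day 0. The open squares lie within −0.05 to 0.07, while chromosome 15 stands near 0.4 and chromosome 5 near −0.3 at both days.

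Day 5 served to see which day 0 differences were of the same size later. Of the 1762 genes that rose at day 0, 1018 (57.8%) also passed as higher at day 5, where 17.1% of these genes did so, and of the 1701 that fell, 835 (49.1%) also passed as lower, beside 15.0%. The other way round, 48.8% of the genes higher and 45.6% of those lower at day 5 had been called alike at day 0. In the test of the difference itself over 8 libraries, 1194 of the 12193 genes (9.79%) differed between the days, 518 with a more positive day 0 value (4.25%) and 676 with a more negative one (5.54%). Of the genes called at day 0, 757 differed so, and 66 that had risen passed as lower at day 5 while 112 that had fallen passed as higher. With 1 library left out, 725 to 885 genes differed over all genes tested in the 8 libraries, against 1211. In the fit of all 14 libraries 179 differed, and with 13 libraries, without control day 3 replicate 2, 1317.

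Some of the named genes had a more positive difference at day 0 than at day 5. Dmp1, at a log2 fold change of 3.13 at day 0, held 76.1 and 65.9 CPM in day 5 libraries labelled knockdown, against 130.0 and 122 CPM in control (−0.82, adjusted p of the difference = 1.07e-06). Tnfrsf11b held 100.4 and 105 CPM at day 5, against 439 and 407 CPM in control (−2.04, adjusted p of the difference = 2.46e-07). Klf4 held 89.6 and 91.2 CPM at day 5, against 128 and 124 CPM (−0.48, adjusted p = 2.42e-06), and H19 6.58 and 8.47 CPM, against 548 and 449 CPM (−6.07, adjusted p = 2.46e-07). Anxa8, an annexin, had 100.03 and 113 CPM in day 0 libraries labelled knockdown, against 28.3 and 30.1 CPM in control, and 22.2 and 25.6 CPM at day 5, against 69.1 and 68.2 CPM (adjusted p = 1.07e-06). In all 5 genes the libraries labelled knockdown were above control at day 0 and below it at day 5. Krt14 had a log2 fold change of 0.24 at day 5 (adjusted p of the difference = 5.71e-06), and Spp1 of −0.75 (7.29e-05).

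Other named genes had a more negative difference at day 0 than at day 5. Sfrp2 held 171 and 186 CPM in day 5 libraries labelled knockdown, against 206 and 216 CPM in control (−0.24, adjusted p of the difference = 1.07e-06), so that control at day 5 was far below its day 0 level. Npnt held 1359 and 1551 CPM, against 938 and 1035 CPM in control (0.56, adjusted p = 1.07e-06), and Matn4 109 and 106 CPM, against 105 and 105 CPM (0.03, adjusted p = 1.09e-06). Akap12, a scaffold of protein kinase A, had 68.1 and 70.9 CPM at day 0, against 144 and 148 CPM in control, and 138 and 126 CPM at day 5, against 20.9 and 20.9 CPM (2.66, adjusted p = 2.46e-07); its day 0 fall did not pass with the spread of all 14 libraries (adjusted p = 0.21). Nov, a matricellular relative of Ctgf, had 68.9 and 67.6 CPM at day 0, against 274 and 257 CPM in control, and 84.3 and 76.0 CPM at day 5, against 28.0 and 28.4 CPM (1.51, adjusted p = 2.46e-07). Akap12 and Nov thus changed direction between the days, without overlap at either. At a different size but the same sign stood Bmp4 (−1.76 at day 5) and Tnfrsf19 (−2.01). Igfbp2 also kept its sign, but its fall was larger at day 5 (−5.75), so its day 0 difference was the more positive. Each of these genes had an adjusted p of the difference of 0.0013 or less.

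**Figure D5:**
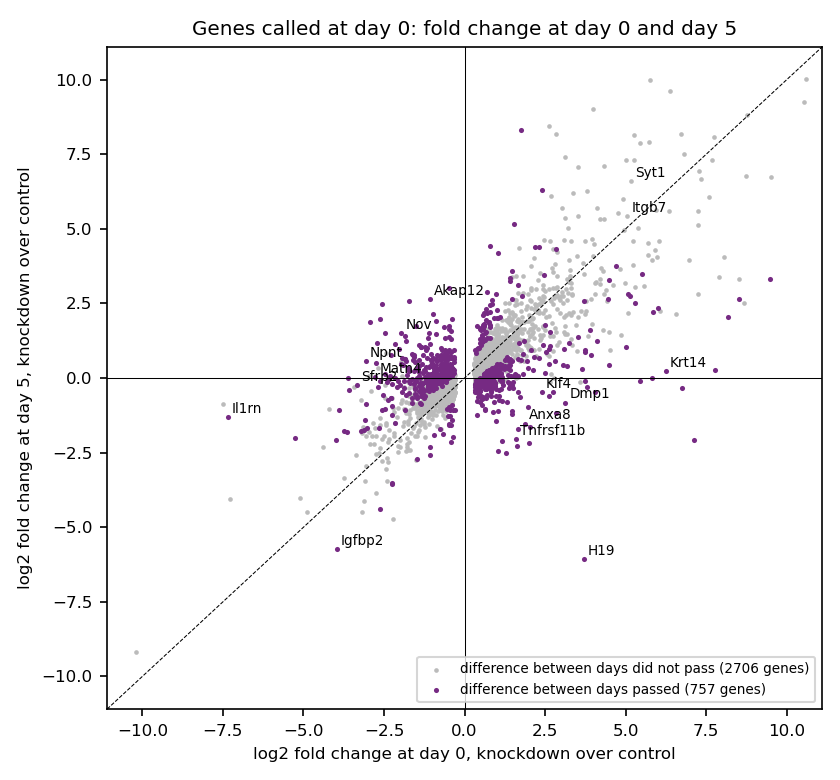
Log2 fold change (libraries labelled knockdown over control) at day 0 on the horizontal and at day 5 on the vertical axis for the 3463 genes called at day 0, from 1 fit of 8 libraries, with purple for the 757 genes whose difference between days passed. H19, at 3.70 and −6.07, and Akap12, at −1.07 and 2.66, lie in opposite quadrants, while Itgb7, at 5.04 and 5.42, lies near the dashed line of equal change.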

How the data were processed

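Poly(A) RNA of MC3T3-E1 cells was sequenced from directional libraries, per the labels' protocols. The authors deposited a table of read counts per gene, not normalized, and a table of RPKM, scaled to transcript length and depth; bcl2fastq, TopHat2, edgeR and the GRCm38 build are named in the submitters' processing notes, while versions, the counting tool and its strand setting are not stated.

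Genes reaching 10 counts in 2 or more of the 4 day 0 libraries were tested with edgeR 4.0.16 (R 4.3.3; quasi-likelihood test, TMM scaling, 2 residual degrees of freedom, Benjamini-Hochberg over all genes, threshold 0.05), a script first tested on simulated data. Day 0 against day 5 was an interaction term over 8 libraries. Alternatives were other scaling, no filter on low counts, DESeq2 1.42.0, limma 3.58.1 on log2(RPKM + 1), a replicate block, all 14 libraries, 13 libraries, each library left out and, chosen after seeing the data, scaling within chromosomes. Day 3 and day 10 were used only in those larger fits. Positions came from GENCODE M21 (24181 of 24346 IDs matched), promoters from RefSeq.

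The genes compared and the 43 lists were chosen with earlier results of these data known. Named genes were 19 fixed by name, the 10 largest rises and falls, the 5 largest CPM gains and losses, up to 3 called genes per list, and the 5 smallest p-values in each direction of the day 0 against day 5 test. Of the genes this rule named, 1 is not reported here. Depth was 13846849 to 18089569 counts per day 0 library, so low counts limit genes such as Alpl and Lef1.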

Additional observations from a re-analysis of the deposited data

Results flagged for a closer look

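The log2 fold change of the libraries labelled knockdown over control differed between day 0 and day 5 for 73 of the 141 genes named. Of all 12193 genes, 9.79% differed so, by an interaction term in edgeR's quasi-likelihood test over 8 libraries (adjusted p under 0.05). Some genes were named for a small p in this test and many for their day 0 change, so the choice partly sets the count. Each value below is the day 0 value minus the day 5 value. With 2 libraries per group, single libraries could not be tested as outliers.

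Among bone genes the difference was −1.82 for Alpl, 1.77 for Ibsp, 1.83 for Spp1, 3.95 for Dmp1, −0.64 for Col1a1, −1.01 for Mmp13, 3.64 for Tnfrsf11b, 0.64 for Mef2a and −3.63 for Npnt. Among matrix genes it was −0.93 for Col6a1, −2.18 for Postn, −0.96 for Adamts2, −1.32 for Col24a1, −1.67 for Thbs1, −1.45 for Tnn, −1.38 for Ltbp2, −2.80 for Matn4, −3.47 for Nov and 1.59 for Col2a1. Among adhesion and cytoskeletal genes it was −3.62 for Itga1, 2.77 for Itga10, 0.57 for Map1a, −1.003 for Tagln, −1.48 for Ctgf, −1.84 for Cyr61, 6.01 for Krt14, 2.40 for Etl4 and −1.64 for Tnnc1.

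Among Wnt, BMP and other signalling genes it was 1.51 for Lef1, −3.09 for Sfrp2, 1.59 for Wnt6, −1.97 for Bmp4, −2.33 for Smad6, −3.25 for Tnfrsf19, −1.61 for Fgfr3, 1.42 for Dusp6, 3.38 for Dtx4, −0.97 for Lfng, 1.78 for Igfbp2, −2.51 for Pappa2, −0.98 for Cdon, −0.87 for Boc, 2.30 for Robo2, −1.47 for Epha4, −1.02 for Lifr, −2.49 for Ccl2, −6.04 for Il1rn and −0.58 for Psmb8. Among growth and stress genes it was 0.50 for Mki67, 0.81 for Cdkn1a, 0.71 for Mdm2, 1.11 for Trp53inp1, 2.87 for Klf4, 1.49 for Egr2, −1.92 for Aldh3a1, 0.96 for P4ha2, −0.85 for Sc5d and −0.77 for Acss2.

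Among imprinted genes it was −1.93 for Mest, −2.35 for Plagl1 and 9.76 for H19. For markers of other lineages it was −1.62 for Cebpa, 0.64 for Plin2, −1.08 for Zfp423, 0.61 for Cd34, −1.03 for Thy1 and −2.35 for Trp63. The remaining genes gave 2.02 for Sybu, 5.53 for Prss35, 2.78 for Plxdc1, 0.95 for Pid1, 3.40 for Anxa8 and −3.72 for Akap12.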

How the results depend on the processing

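Counts of genes kept their size, within 1.5 times, under other scaling, without a filter, in DESeq2 and with 1 library left out (1513 to 1705 higher, 1413 to 1589 lower). With a replicate block 3191 rose and 3220 fell; the numbers pair no samples by the labels, and same-numbered differences correlated at 0.315 over genes. With all 14 libraries 579 rose and 352 fell, and 245 fell at least 2-fold. With limma 276 rose and 170 fell at least 2-fold, and 1808 rose and 1136 fell, against 1762 and 1701. Genes differing between days numbered 1211, 3467 with the replicate block, 179 with all 14 libraries, 1317 with 13 and 725 to 885 with 1 library left out. Macf1 ran from −0.0304 to 0.0359 with 1 library left out and was −0.0255 with scaling within chromosomes. E2f6 was 0.0087 with limma and ran from −0.1170 to 0.0090 with 1 library left out. With all 14 libraries 46 of the named calls did not pass, and with 13 libraries 1 did not. The replicate block took away 1 named call, S100a4 (adjusted p = 0.099), and added Dst, Sp7 and Mki67 (adjusted p = 7.79e-11, 0.0273 and 0.0191); in the interferon list 19 then fell, against 12. Counts or medians of lists that moved numbered 59 with all 14 libraries, 8 with 13 and 29 with the block. In limma 17 moved, in DESeq2 5, and with scaling within chromosomes 21. The day 5 test was not run with limma or within chromosomes. Where not stated, the cause of a change was not tested.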
